A study of Mus musculus with 12 samples.

Results

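The type I interferon-stimulated genes described here are 36 mouse genes chosen by name, of which 34 were among the 18609 genes listed and all 34 were among the 12164 genes tested. Mx1 and Mx2 were not analysed here. The libraries hold RNA of whole MC38 tumours, from a mouse colon carcinoma line, grown in C57BL/6 hosts that lacked TLR4 (KO) or were wild type (WT). TLR4 is the receptor that senses lipopolysaccharide of Gram-negative bacteria such as Salmonella. All hosts bore tumours and were injected into a vein, either with Salmonella or with the buffer PBS alone, and tumours were taken after 1 day. The 4 groups were thus KO Salmonella, KO PBS, WT Salmonella and WT PBS. Each had 3 libraries, whose titles end in F-1, M-1 or M-2. The labels give the knockout for the mice and not for the MC38 cells, so tumour RNA can hold Tlr4 transcripts of the cancer cells. Whether the 3 libraries of a group came from different mice is not stated in the labels. All p-values therefore rest on library-to-library spread, part of which may be technical.

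Type I interferons are cytokines made when cells sense microbial nucleic acid or lipopolysaccharide. They bind a receptor of IFNAR1 and IFNAR2 chains, whose kinases activate STAT2. A factor that holds STAT2 and IRF9 binds interferon-stimulated response elements in promoters and switches on the genes described here. Many of their products bind, cut or modify nucleic acid and so limit viruses. Others sense nucleic acid or feed back on the pathway. Some of these genes can also be switched on by IRF3 directly or by interferon gamma.

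Promoter sequence was compared with the core of the response element, searched on both strands as GAAANNGAAA. RefSeq windows (GRCm38.p6) from 250 bases before to 50 bases after the transcript start were found for 27 of the 34 genes. A match was present in 14 of these 27 genes (51.9%), against 388 of 9716 tested genes with a window (3.99%) and 1131 of all 32851 windows (3.44%). A second motif, the gamma-activated site searched as TTCNNNGAA, was present in 6 of the 27 genes (22.2%), against 8.48% of tested genes with a window and 8.30% of all windows. Matches of the 2 motifs overlapped in 1 gene, Bst2. A match describes letters in this window only. The genes below show the forms the element took near the start, as single, paired and overlapping copies. Capitals mark the matches, and TTTCNNTTTC is the same core on the other strand.
Ifit1: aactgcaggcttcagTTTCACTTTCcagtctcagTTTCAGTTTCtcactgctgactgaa
Ifit1bl1: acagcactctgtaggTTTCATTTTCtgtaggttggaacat
Ifit3: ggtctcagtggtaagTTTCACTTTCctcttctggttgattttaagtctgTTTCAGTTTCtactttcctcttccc
Ifit3b: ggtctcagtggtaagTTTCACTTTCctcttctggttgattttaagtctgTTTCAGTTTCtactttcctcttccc
Isg15: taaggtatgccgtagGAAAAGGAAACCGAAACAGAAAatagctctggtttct
Oas3: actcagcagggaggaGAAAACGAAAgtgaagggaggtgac
Rsad2: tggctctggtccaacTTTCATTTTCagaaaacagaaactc
Sequences run 5′ to 3′ on the gene's strand. They lie at chr19:34640770-34640828 (forward strand) for Ifit1, chr19:34602048-34602087 (reverse strand) for Ifit1bl1, chr19:34583358-34583431 (forward strand) for Ifit3 and chr19:34607754-34607827 (forward strand) for Ifit3b. The others lie at chr4:156200860-156200911 (reverse strand) for Isg15, chr5:120777710-120777749 (reverse strand) for Oas3 and chr12:26456548-26456587 (reverse strand) for Rsad2. The first matching base stood 104 bases before the start in Ifit1, 104 in Ifit1bl1, 78 in Isg15, 75 in Oas3 and 120 in Rsad2. Ifit1bl1 had a second window, not shown, with a match 23 bases before its start. The 74 bases shown were identical in Ifit3 and Ifit3b. Isg15 held 3 overlapping copies in 1 run.

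Several of the genes lie side by side in GRCm38 (GENCODE M21), a build and annotation that may not be the authors'. Ifit2, Ifit3, Ifit1bl1, Ifit3b and Ifit1 follow each other on chromosome 19, from the start of Ifit2 at chr19:34550694-34576419 to the end of Ifit1 at chr19:34640871-34650009. Oas2 (chr5:120730333-120749853) and Oas3 (chr5:120753098-120777661) are 3.24 kb apart, and Rsad2 (chr12:26442746-26456452) and Cmpk2 (chr12:26469204-26479837) 12.8 kb apart. Dtx3l (chr16:35926511-35939151) and Parp9 (chr16:35938470-35972605) lie on opposite strands and overlap by 682 bases. The sources used here do not say whether counting used strand, so fragments in that overlap cannot be assigned. In the longest transcripts, 57.6% of the 50-base words of Oas1a also occurred in Oas1g, 51.2% of those of Ifit3 in Ifit3b and 44.5% of those of Ifit3b in Ifit3. For Herc6, 23.8% occurred in the predicted gene Gm45193. Values of these 4 genes are uncertain because fragments may have been split or lost between copies.

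Values are FPKM, fragments counted on a gene, scaled to its length and to the library total, as deposited. A whole tumour holds many cell types, and fewer cells of a type cannot be told apart from less RNA per cell. Libraries held 30512048 to 38764566 fragments on listed genes, and each of the 34 genes had at least 171 fragments in every library. Per length, the highest was Bst2 and the next were Isg15 and Lgals3bp, at means over the 12 libraries of 808 FPKM, 398 FPKM and 184 FPKM. The lowest were Ifit1bl1 and Ddx60, at 1.80 to 10.2 FPKM and 4.49 to 11.6 FPKM. The 12 neutrophil markers, whose calls are given further on, summed to 545 to 967 FPKM in KO Salmonella, 17.2 to 19.00 FPKM in KO PBS, 2810.1 to 18930.2 FPKM in WT Salmonella and 19.3 to 28.9 FPKM in WT PBS libraries. WT Salmonella M-1 held the highest sum, and F-1 and M-1 of that group had scaling factors of 0.851 and 0.853, against 0.997 to 1.048 in the other libraries. Fold changes below are differences in log2(FPKM divided by the scaling factor, plus 0.5), with the standard error (SE) of the fit. They therefore differ from ratios of the FPKM printed. Tlr4 itself stood at 1.73, 1.96 and 1.82 FPKM in KO Salmonella libraries, against 2.62, 3.78 and 2.58 FPKM in WT Salmonella libraries, with a log2 fold change of -0.71 ± 0.20 (adjusted p = 0.0501, limma), which does not check the host genotype, since the transcripts can come from cells other than the host's. Of 6 epithelial markers listed, none passed the filter on low values and their sum was 0.458 to 2.52 FPKM in every library, so these do not mark the tumour cells in the libraries.

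Tumours of KO and WT hosts were compared under Salmonella, which asks whether levels in the tumour differ with host TLR4 after Salmonella. Whether the response to Salmonella differs between hosts is a separate question, tested below as an interaction. Of the 34 genes, 20 were higher in KO hosts and none lower, and the IFIT group had the highest median log2 fold change of the 8 role groups, at 1.07. These counts, 20 higher and 0 lower in KO Salmonella than in WT Salmonella, are at an adjusted p under 0.05 (limma, two-sided, with the Benjamini-Hochberg adjustment made over 12164 genes). The background was 3.39% of tested genes higher and 5.65% lower. All 34 log2 fold changes were above 0, against 52.2% of tested genes, with a median of 0.71, against 0.015 for all tested genes. The libraries of the groups did not overlap after scaling for 25 genes, all higher in KO Salmonella, against 13.1% of tested genes. Overlap is stated below for FPKM as printed, unless scaling is named. The direction held for all 34 genes with median-of-ratios scaling and with FPKM as deposited, which put the median of all tested genes at 0.16.

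The number of genes past the threshold depended on which libraries were in the fit. It was 1 when only the KO Salmonella and WT Salmonella libraries were fitted, where 12 of all genes passed in place of 1099. Leaving out a WT Salmonella library gave 1 without F-1, 2 without M-1 and 20 without M-2. Leaving out a KO Salmonella library gave 10 without F-1, 1 without M-1 and 4 without M-2. Counts over all genes moved as well, to 10, 68 and 4595 without those WT Salmonella libraries and to 573, 36 and 63 without those KO Salmonella libraries. The median over the 34 genes stayed between 0.61 and 0.73 in these fits, and 33 or 34 of them were above 0. Ifit1bl1 kept its call with each of the 12 libraries left out.

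**Figure D1:**
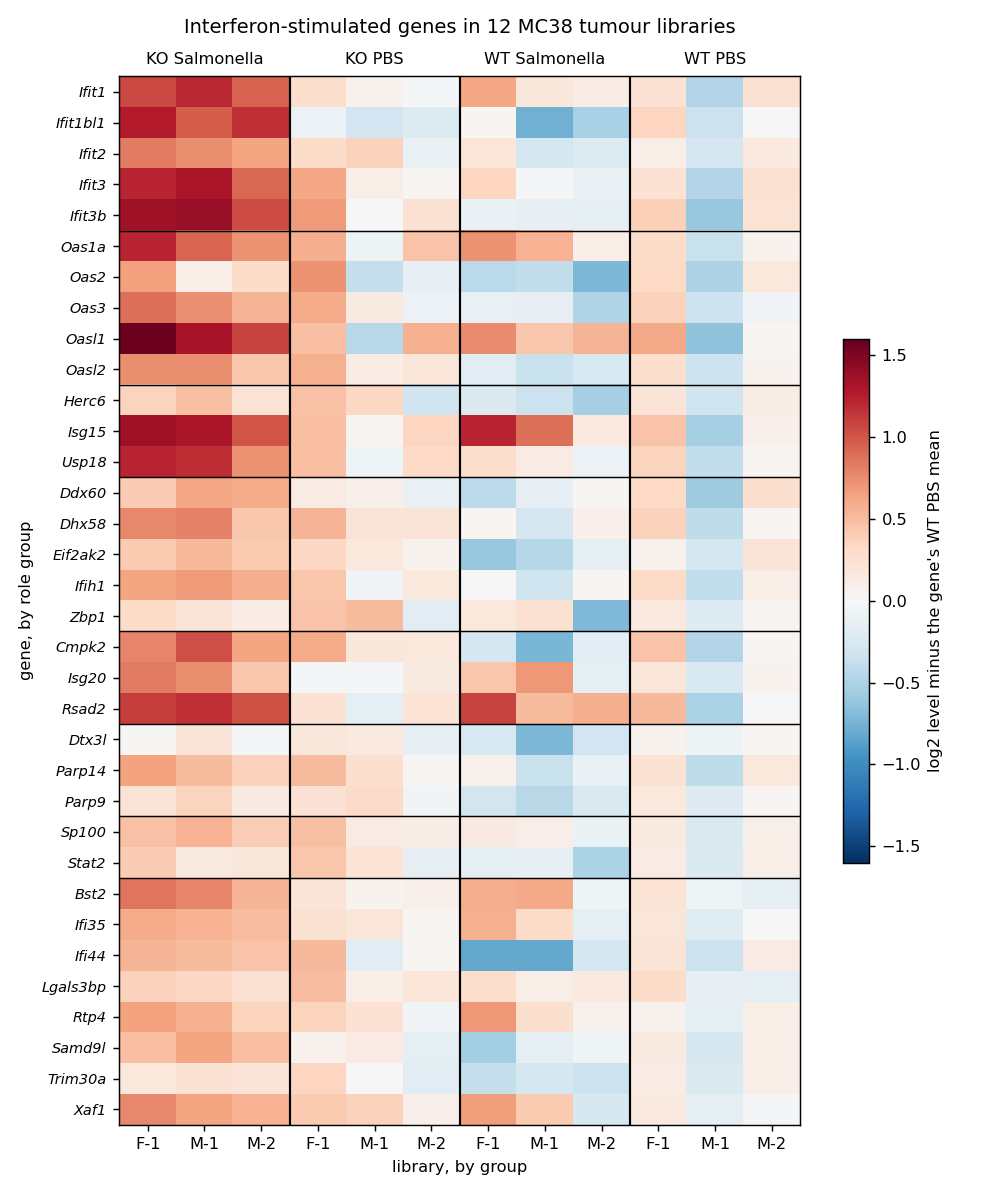
Log2 level of each of the 34 genes (rows, by role group) in each of the 12 libraries (columns, by group), as the difference from the gene's mean in WT PBS. Red is higher and blue is lower than that mean. KO Salmonella libraries had the highest group mean for 32 of the 34 genes, and WT PBS M-1 was the lowest of its group for 32.

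The IFIT proteins bind viral RNA and block its translation, and all 5 of the measured genes were higher in KO Salmonella than in WT Salmonella. In each triplet that follows, libraries stand in the order F-1, M-1 and M-2. Ifit1, whose product recognises RNA caps without a host methyl mark, had 69.2, 78.2 and 66.2 FPKM in KO Salmonella libraries, against 43.4, 32.1 and 37.2 FPKM in WT Salmonella libraries. Under PBS, Ifit1 had 41.7, 36.1 and 33.02 FPKM in KO PBS libraries, against 39.9, 24.6 and 41.03 FPKM in WT PBS libraries. The 3 KO Salmonella libraries stood above the other 9 libraries, which overlapped between groups. Ifit1bl1, an Ifit1-like gene of the same cluster, had 10.2, 8.34 and 9.84 FPKM in KO Salmonella libraries, against 3.44, 1.80 and 2.69 FPKM in WT Salmonella libraries. Under PBS its values were 3.80, 3.21 and 3.40 FPKM in KO PBS libraries, against 5.30, 3.11 and 4.11 FPKM in WT PBS libraries. Its log2 fold change between hosts under Salmonella was 1.55 ± 0.21 (SE, n = 3 libraries per group, adjusted p = 0.00842 by limma), the largest of the 34 genes. The WT Salmonella libraries of Ifit1bl1 reached below both PBS groups, with 1 of 3 above the lowest WT PBS library. Ifit2 had 27.8, 26.6 and 25.1 FPKM in KO Salmonella libraries, against 15.02, 10.8 and 13.6 FPKM in WT Salmonella libraries. Under PBS, Ifit2 had 19.7, 20.9 and 14.7 FPKM in KO PBS libraries, against 17.2, 13.2 and 17.99 FPKM in WT PBS libraries. Its product binds RNA rich in adenine and uracil, and its KO Salmonella libraries again stood above all others. Ifit3, a partner that stabilises Ifit1 in complexes in human cells, had 61.04, 66.8 and 51.8 FPKM in KO Salmonella libraries, against 28.3, 22.00 and 25.1 FPKM in WT Salmonella libraries. Under PBS, Ifit3 had 41.8, 29.3 and 27.4 FPKM in KO PBS libraries, against 31.6, 19.4 and 32.5 FPKM in WT PBS libraries. Ifit3b, its near copy, had 20.2, 21.5 and 17.01 FPKM in KO Salmonella libraries, against 6.06, 5.96 and 7.15 FPKM in WT Salmonella libraries. The PBS libraries of Ifit3b held 13.1, 8.07 and 9.38 FPKM in KO PBS libraries, against 10.5, 5.06 and 9.46 FPKM in WT PBS libraries. Both genes were highest in the 3 KO Salmonella libraries, and KO PBS F-1 came next. The log2 fold changes of Ifit1, Ifit2, Ifit3 and Ifit3b were 0.76 ± 0.19, 0.84 ± 0.16, 1.07 ± 0.22 and 1.39 ± 0.24, with adjusted p-values of 0.0336, 0.0162, 0.0201 and 0.0145.

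**Figure D2:**
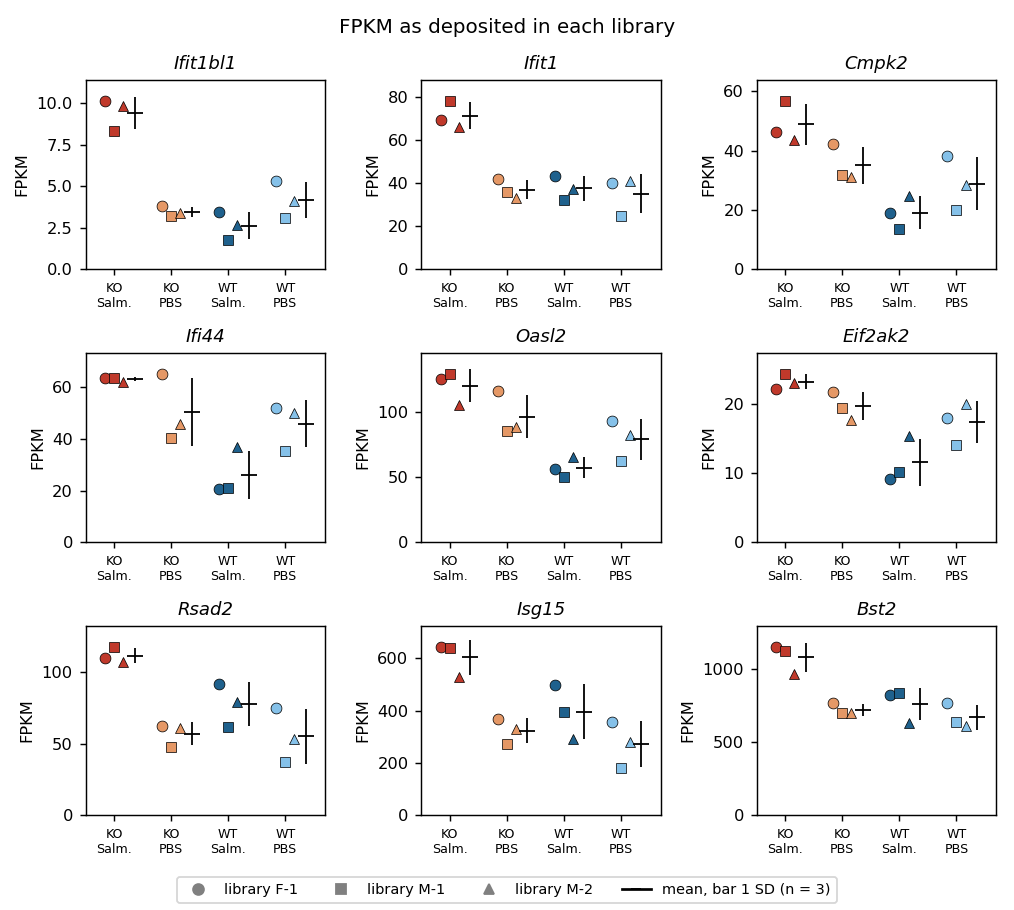
FPKM as deposited (y axis, from 0) of 9 genes in each library, by group on the x axis. Symbols tell the 3 libraries of a group apart, and the bar beside them is the mean with 1 SD (n = 3). Ifit1bl1 was at 8.34 to 10.2 FPKM in KO Salmonella libraries and at 5.30 FPKM or below in all others, whereas the WT Salmonella libraries of Rsad2 overlapped both PBS groups.

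The OAS enzymes make short oligoadenylates that activate RNase L, which cuts RNA. Of the 5 OAS and OAS-like genes measured, Oas3 and Oasl2 passed the threshold between hosts under Salmonella. The groups did not overlap for any of the 5, also after scaling. Oas3 had 26.1, 24.2 and 21.3 FPKM in KO Salmonella libraries, against 10.9, 10.9 and 10.2 FPKM in WT Salmonella libraries. Under PBS, Oas3 had 22.3, 16.2 and 13.4 FPKM in KO PBS libraries, against 18.9, 11.5 and 14.2 FPKM in WT PBS libraries. The WT Salmonella libraries were the lowest 3 of the 12 as deposited. Oasl2, an OAS-like protein with ubiquitin-like repeats, had 126, 129.8 and 106 FPKM in KO Salmonella libraries, against 56.7, 50.2 and 65.8 FPKM in WT Salmonella libraries. Its PBS libraries held 116, 85.5 and 88.9 FPKM in KO PBS libraries, against 93.6, 62.5 and 82.3 FPKM in WT PBS libraries. The tests gave log2 fold changes of 0.97 ± 0.20 for Oas3 (adjusted p = 0.0213, limma) and 0.90 ± 0.16 for Oasl2 (adjusted p = 0.0148). Oas1a ranged over 37.2 to 107 FPKM, Oas2 over 15.9 to 43.9 FPKM and Oasl1, which in mouse limits translation of Irf7, over 23.6 to 107 FPKM across the 12 libraries. The log2 fold changes of these 3 genes were 0.50 ± 0.22, 0.86 ± 0.29 and 0.75 ± 0.33, with adjusted p-values of 0.158, 0.0797 and 0.151.

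Isg15 encodes a ubiquitin-like modifier, Herc6 the ligase that attaches it in mouse and Usp18 the protease that removes it, which also dampens IFNAR2 signalling. Usp18 and Herc6 passed the threshold and Isg15 did not. Usp18 had 113, 113 and 82.6 FPKM in KO Salmonella libraries, against 50.1, 45.1 and 46.6 FPKM in WT Salmonella libraries. Under PBS, Usp18 had 70.5, 47.9 and 62.1 FPKM in KO PBS libraries, against 63.6, 37.97 and 52.2 FPKM in WT PBS libraries. Its 3 KO Salmonella libraries stood above the other 9. Herc6 had 21.5, 24.2 and 20.3 FPKM in KO Salmonella libraries, against 12.2, 11.2 and 11.9 FPKM in WT Salmonella libraries. Under PBS the Herc6 values were 24.5, 22.2 and 13.7 FPKM in KO PBS libraries, against 20.01, 13.9 and 19.2 FPKM in WT PBS libraries. For Herc6 the WT Salmonella libraries were low, and the KO Salmonella and KO PBS libraries overlapped. Isg15 had 643, 638 and 526 FPKM in KO Salmonella libraries, against 499, 395 and 290.2 FPKM in WT Salmonella libraries. Under PBS, Isg15 had 367, 272 and 328 FPKM in KO PBS libraries, against 356, 180.4 and 280.0 FPKM in WT PBS libraries. After scaling, WT Salmonella F-1 reached into the range of the KO Salmonella libraries, so the groups overlapped. The log2 fold changes were 0.94 ± 0.21 for Usp18, 0.72 ± 0.20 for Herc6 and 0.47 ± 0.28 for Isg15, with adjusted p-values of 0.0253, 0.0447 and 0.27.

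Nucleic acid sensors came next, with 4 of 5 higher in KO Salmonella than in WT Salmonella. Eif2ak2, the kinase that halts translation on double-stranded RNA, had 22.2, 24.4 and 23.03 FPKM in KO Salmonella libraries, against 9.10, 10.2 and 15.5 FPKM in WT Salmonella libraries. Under PBS, Eif2ak2 had 21.8, 19.5 and 17.7 FPKM in KO PBS libraries, against 17.97, 14.1 and 20.1 FPKM in WT PBS libraries. The KO Salmonella libraries stood above the other 9, and WT Salmonella F-1 and M-1 were the lowest. Ifih1, a sensor of long double-stranded RNA, had 19.8, 20.9 and 19.8 FPKM in KO Salmonella libraries, against 10.7, 8.57 and 13.3 FPKM in WT Salmonella libraries. Its PBS libraries held 18.02, 12.8 and 14.6 FPKM in KO PBS libraries, against 16.1, 9.83 and 14.2 FPKM in WT PBS libraries. Again the KO Salmonella libraries were the highest 3. Dhx58, a helicase that tunes this sensing, had 37.2, 38.6 and 30.4 FPKM in KO Salmonella libraries, against 18.8, 15.3 and 23.7 FPKM in WT Salmonella libraries. Under PBS the Dhx58 values were 33.2, 26.1 and 25.8 FPKM in KO PBS libraries, against 28.99, 16.9 and 23.2 FPKM in WT PBS libraries. KO PBS F-1 lay within the range of the KO Salmonella libraries. Ddx60, a further helicase of the response, had 9.69, 11.6 and 11.6 FPKM in KO Salmonella libraries, against 4.49, 5.60 and 7.59 FPKM in WT Salmonella libraries. Under PBS, Ddx60 had 8.25, 8.04 and 6.77 FPKM in KO PBS libraries, against 9.42, 4.88 and 9.09 FPKM in WT PBS libraries. The KO Salmonella libraries were the highest 3, by a small margin over WT PBS F-1. Zbp1, a sensor of left-handed nucleic acid, had 128, 124 and 119 FPKM in KO Salmonella libraries, against 101, 106 and 66.8 FPKM in WT Salmonella libraries. The PBS values of Zbp1 were 150.5, 156 and 95.5 FPKM in KO PBS libraries, against 122, 94.8 and 114 FPKM in WT PBS libraries. KO PBS M-1 was the highest, and after scaling WT Salmonella F-1 and M-1 reached into the KO Salmonella range. Fold changes on the log2 scale were 0.85 ± 0.14 for Eif2ak2 (adjusted p = 0.0134, limma), 0.73 ± 0.17 for Ifih1, 0.72 ± 0.18 for Dhx58, 0.71 ± 0.20 for Ddx60 and 0.30 ± 0.24 for Zbp1 (adjusted p = 0.416). The call for Ddx60 (adjusted p = 0.0494) was lost in 18 of 23 alternatives.

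Of the neighbours Rsad2 and Cmpk2, Cmpk2 was higher in KO Salmonella than in WT Salmonella and Rsad2 was not called. Rsad2 encodes viperin, which makes a chain-terminating nucleotide from CTP, and Cmpk2 encodes a mitochondrial nucleotide kinase. Cmpk2 had 46.3, 56.8 and 43.5 FPKM in KO Salmonella libraries, against 18.8, 13.7 and 24.7 FPKM in WT Salmonella libraries. Under PBS, Cmpk2 had 42.4, 31.9 and 31.1 FPKM in KO PBS libraries, against 38.2, 20.1 and 28.5 FPKM in WT PBS libraries. WT Salmonella libraries were low, and the KO Salmonella libraries exceeded all others. Rsad2 had 109.7, 117 and 107 FPKM in KO Salmonella libraries, against 91.8, 61.8 and 79.1 FPKM in WT Salmonella libraries. Under PBS, Rsad2 had 62.2, 47.8 and 60.5 FPKM in KO PBS libraries, against 75.01, 37.00 and 52.9 FPKM in WT PBS libraries. The KO Salmonella libraries were the highest 3 as printed, and after scaling WT Salmonella F-1 reached into their range. Cmpk2 passed the threshold between hosts under Salmonella, with a log2 fold change of 1.21 ± 0.23 (adjusted p = 0.0174, limma). For Rsad2 the log2 fold change was 0.37 ± 0.23 (adjusted p = 0.284). The difference between the 2 genes was not tested. Isg20, an RNA exonuclease, ranged over 5.86 to 12.3 FPKM and had a log2 fold change of 0.34 ± 0.19 (adjusted p = 0.243).

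Parp9 and Dtx3l form a ligase complex that binds ADP-ribose marks, and Parp14 transfers ADP-ribose. All 3 were higher in KO Salmonella than in WT Salmonella. Parp9 had 51.7, 58.5 and 50.95 FPKM in KO Salmonella libraries, against 30.9, 27.7 and 38.8 FPKM in WT Salmonella libraries. Under PBS, Parp9 had 54.4, 57.8 and 44.4 FPKM in KO PBS libraries, against 51.8, 40.1 and 47.5 FPKM in WT PBS libraries. Dtx3l had 29.6, 34.8 and 30.1 FPKM in KO Salmonella libraries, against 20.96, 15.1 and 24.5 FPKM in WT Salmonella libraries. Its values under PBS were 34.6, 34.4 and 27.6 FPKM in KO PBS libraries, against 31.4, 28.8 and 31.5 FPKM in WT PBS libraries. For both genes the KO Salmonella libraries overlapped the PBS libraries, and the 3 WT Salmonella libraries were the lowest of the 12. Parp14 had 25.8, 24.1 and 22.1 FPKM in KO Salmonella libraries, against 14.6, 10.8 and 15.6 FPKM in WT Salmonella libraries. Under PBS, Parp14 had 24.4, 20.6 and 17.2 FPKM in KO PBS libraries, against 19.9, 12.8 and 19.3 FPKM in WT PBS libraries. WT PBS M-1 lay within the WT Salmonella range. The log2 fold changes were 0.57 ± 0.12 for Parp9, 0.49 ± 0.13 for Dtx3l and 0.64 ± 0.17 for Parp14, with adjusted p-values of 0.0207, 0.0379 and 0.044.

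Neither Stat2, a subunit of the factor that drives these genes, nor Sp100, a nuclear body protein, passed the threshold, although their libraries did not overlap between hosts under Salmonella. Stat2 had 35.5, 30.1 and 31.4 FPKM in KO Salmonella libraries, against 20.4, 20.8 and 19.4 FPKM in WT Salmonella libraries. Under PBS, Stat2 had 38.04, 32.5 and 24.9 FPKM in KO PBS libraries, against 30.3, 23.6 and 29.97 FPKM in WT PBS libraries. Its WT Salmonella libraries were the lowest 3 as deposited. Sp100 ranged over 11.4 to 19.9 FPKM. The log2 fold changes were 0.50 ± 0.16 for Stat2 (adjusted p = 0.0638, limma) and 0.42 ± 0.13 for Sp100 (adjusted p = 0.0598).

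Among the 8 remaining effectors, Ifi44, Samd9l and Trim30a passed the threshold between hosts under Salmonella. Ifi44, an antiviral protein, had 63.3, 63.4 and 62.1 FPKM in KO Salmonella libraries, against 20.8, 20.9 and 36.8 FPKM in WT Salmonella libraries. Under PBS, Ifi44 had 65.1, 40.3 and 45.7 FPKM in KO PBS libraries, against 51.95, 35.4 and 50.01 FPKM in WT PBS libraries. WT Salmonella F-1 and M-1 were below all PBS libraries, while the KO Salmonella libraries lay within the KO PBS range. Samd9l, an antiviral and growth-limiting protein, had 42.6, 48.5 and 44.4 FPKM in KO Salmonella libraries, against 17.6, 23.3 and 29.99 FPKM in WT Salmonella libraries. The PBS libraries of Samd9l held 33.3, 34.9 and 28.1 FPKM in KO PBS libraries, against 34.8, 26.4 and 34.5 FPKM in WT PBS libraries. Its KO Salmonella libraries stood above the other 9. Trim30a, which in mouse dampens NF-κB signalling, had 33.03, 35.5 and 35.3 FPKM in KO Salmonella libraries, against 19.2, 20.5 and 23.8 FPKM in WT Salmonella libraries. Under PBS, Trim30a had 39.1, 30.96 and 26.6 FPKM in KO PBS libraries, against 33.2, 26.1 and 32.98 FPKM in WT PBS libraries. Its WT Salmonella libraries were the lowest 3. Bst2 encodes tetherin, which holds budding virus on the cell surface. Bst2 had 1152, 1124 and 966 FPKM in KO Salmonella libraries, against 819, 833 and 632 FPKM in WT Salmonella libraries. Under PBS, Bst2 had 771, 696 and 699 FPKM in KO PBS libraries, against 767, 635 and 608 FPKM in WT PBS libraries. Its KO Salmonella libraries were the highest 3 as deposited, but WT Salmonella F-1 and M-1 reached into their range after scaling. Log2 fold changes were 1.14 ± 0.20 for Ifi44, 0.79 ± 0.14 for Samd9l, 0.54 ± 0.13 for Trim30a and 0.35 ± 0.18 for Bst2, with adjusted p-values of 0.0152, 0.015, 0.0292 and 0.216. The other 4 genes were not called. Ifi35, which pairs with Nmi, ranged over 51.5 to 85.3 FPKM, and Xaf1, a binder of the apoptosis inhibitor XIAP, over 14.4 to 28.8 FPKM. Rtp4, a receptor-transporting protein, ranged over 19.6 to 33.2 FPKM and Lgals3bp, a secreted glycoprotein, over 146 to 234 FPKM. Their log2 fold changes were 0.31 ± 0.16 for Ifi35, 0.38 ± 0.19 for Xaf1, 0.19 ± 0.15 for Rtp4 and 0.13 ± 0.14 for Lgals3bp.

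**Figure D3:**
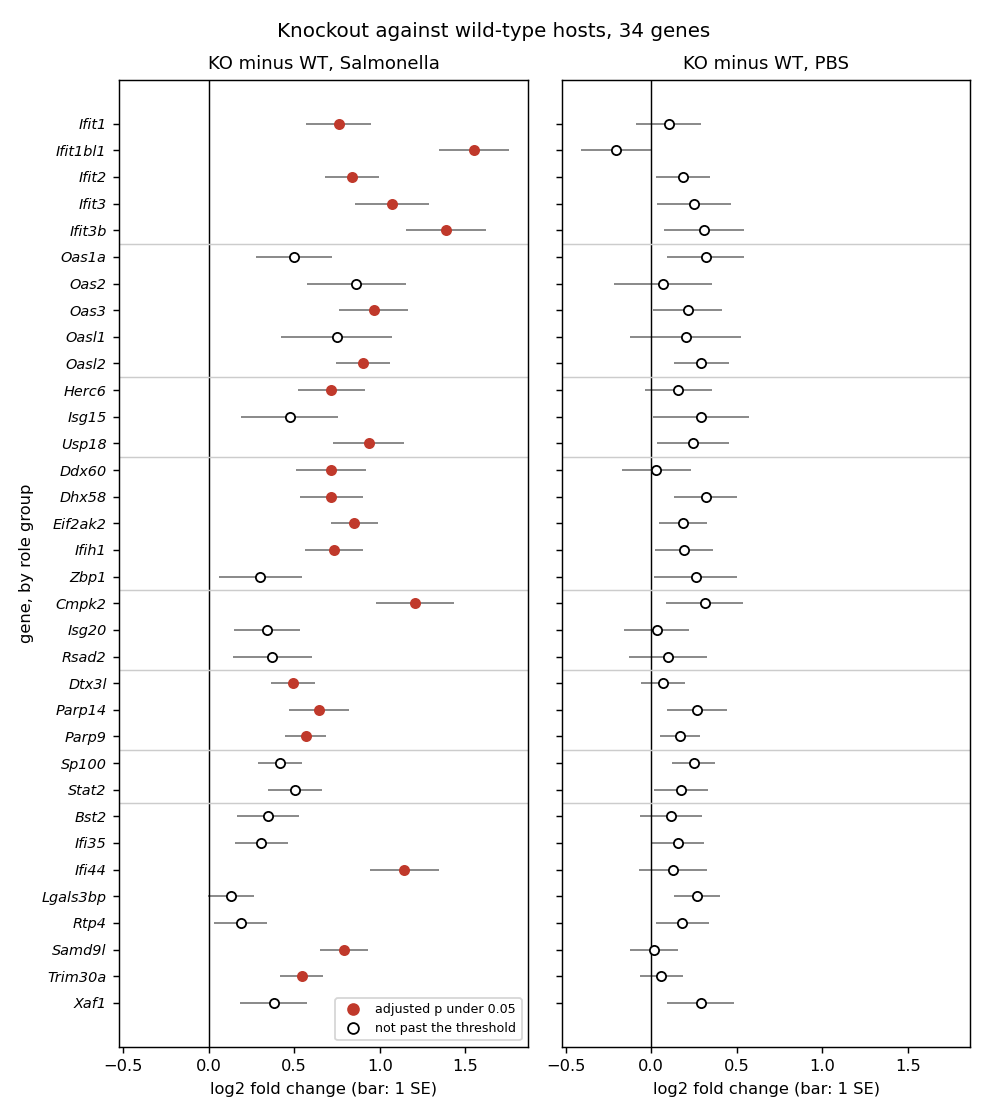
Log2 fold change of KO over WT hosts (x axis) for each of the 34 genes (rows, by role group), under Salmonella on the left and under PBS on the right, with bars of 1 SE. Filled points passed an adjusted p of 0.05. Under Salmonella all 34 points lie above 0 and 20 are filled, and under PBS 33 lie above 0 and 0 are filled.

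Calls were also counted by promoter motif. Among the 27 genes with a window, 9 of the 14 with a response element core and 7 of the 13 without one passed the threshold between hosts under Salmonella. The median log2 fold change was 0.72 in both sets.

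Within KO hosts, the comparison of Salmonella with PBS asks what the bacteria change without host TLR4. Ifit1 and Ifit1bl1 rose, and no gene fell. These 2 of 34 genes stand against a background of 0.444% of tested genes higher and 0.329% lower at an adjusted p under 0.05. Log2 fold changes were 1.34 ± 0.21 for Ifit1bl1 (adjusted p = 0.018, limma) and 0.97 ± 0.19 for Ifit1 (adjusted p = 0.0412). The change was above 0 for 32 of the 34 genes, against 50.6% of tested genes, with a median of 0.42, against 0.003 for all tested genes. After scaling, the KO Salmonella libraries were all above the KO PBS libraries for 20 genes, against 14.8% of tested genes. These 20 included all 5 IFIT genes, Isg15, Usp18, Rsad2, Cmpk2, Isg20, Oas1a, Oasl1 and Bst2. Oasl1, Rsad2 and Isg15 had log2 fold changes of 1.12 ± 0.33, 1.00 ± 0.23 and 0.93 ± 0.28, with adjusted p-values of 0.118, 0.0751 and 0.123. The 2 genes not above 0 were Dtx3l at -0.0011 ± 0.13 and Zbp1 at -0.06 ± 0.24. The count of 2 became 0 without KO PBS F-1, without KO PBS M-1, without KO Salmonella F-1 and without KO Salmonella M-2, and 1 without KO PBS M-2, KO Salmonella M-1 or WT PBS M-2. It was 5 without WT PBS M-1 and 8 without WT Salmonella M-2. These WT libraries are not in the means compared, but the filter, scaling, spread and adjustment were redone without them. The call for Ifit1 was lost in 11 of 23 alternatives and that for Ifit1bl1 in 4.

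In WT hosts the same treatment changed 4 of the 34 genes. Rsad2 rose, and Ifi44, Dtx3l and Eif2ak2 fell. This is 1 gene higher and 3 lower, against 18.6% of tested genes higher and 17.0% lower. Changes were above 0 for 14 of the 34 genes, against 48.8% of tested genes, with a median of -0.10. The log2 fold changes were 0.73 ± 0.23 for Rsad2 (adjusted p = 0.0307, limma), -0.64 ± 0.20 for Ifi44 (adjusted p = 0.0294), -0.42 ± 0.13 for Dtx3l (adjusted p = 0.0245) and -0.40 ± 0.14 for Eif2ak2 (adjusted p = 0.0418). After scaling, WT Salmonella libraries were all below WT PBS libraries for Trim30a, Parp9 and Dtx3l, 3 of 34 genes against 22.8% of tested genes, and were all above them for 0 genes. With FPKM as deposited, 0 genes were higher and 10 lower, and the median of all tested genes shifted to -0.19. The count of 4 was 0 when only the WT libraries were fitted and 0 without WT PBS M-2. The split into higher and lower moved as well, to 2 and 0 without WT PBS F-1, 0 and 7 without WT PBS M-1, 0 and 2 without WT Salmonella F-1, 1 and 0 without WT Salmonella M-1, and 8 and 4 without WT Salmonella M-2. The call for Eif2ak2 was lost in 12 of 23 alternatives, against 6 for Rsad2, 5 for Ifi44 and 4 for Dtx3l.

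**Figure D4:**
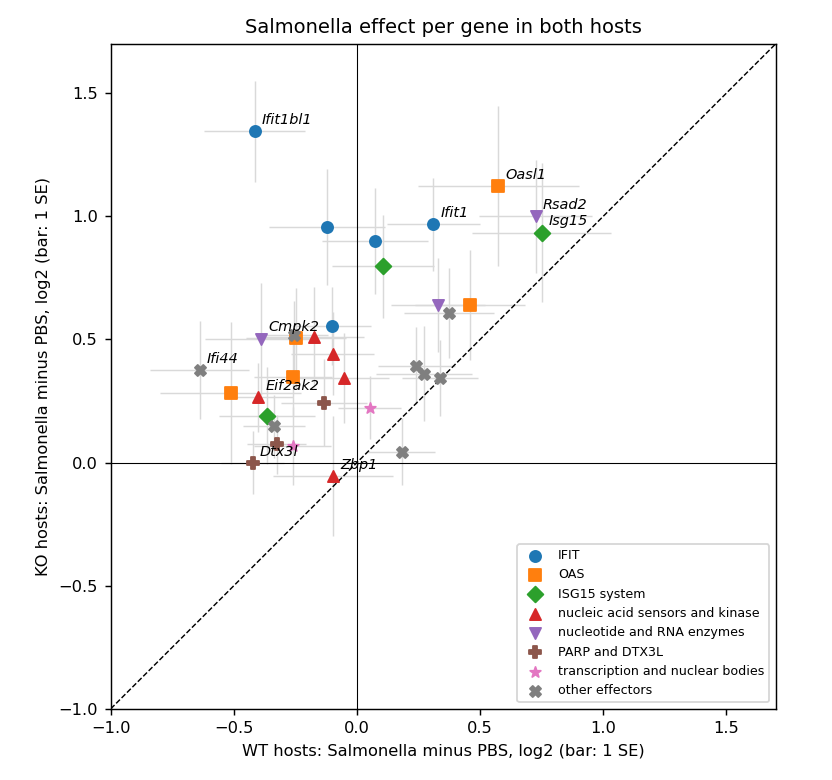
Log2 fold change of Salmonella over PBS in KO hosts (y axis) against the same in WT hosts (x axis) for each of the 34 genes, with bars of 1 SE and symbols by role group. The dashed line marks equal change. 33 of the 34 points lie above that line, and the point farthest above it is Ifit1bl1.

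The difference between the 2 treatment effects was tested as an interaction, the KO effect minus the WT effect. No gene of the 34 passed the adjusted threshold with limma, and none did with voom on recovered fragments. The background was 0.0247% of tested genes at an adjusted p under 0.05. At an unadjusted p under 0.05, 17 of the 34 genes were reached, all with a larger effect in KO hosts, against 6.18% of tested genes with that direction. The difference was above 0 for 33 of the 34 genes, against 51.1% of tested genes, and its median was 0.51. The lowest adjusted p was 0.101 for Ifit1bl1, whose difference was 1.76 ± 0.29 on the log2 scale. Ifit3b, Ifi44 and Cmpk2 followed in size, at 1.08 ± 0.33, 1.02 ± 0.28 and 0.89 ± 0.32, with adjusted p-values of 0.256, 0.225 and 0.289. All 5 IFIT genes were among the 17, and Isg15 (0.18 ± 0.40) and Rsad2 (0.27 ± 0.32) were not. Lgals3bp alone was below 0, at -0.14 ± 0.19. The comparisons between hosts under Salmonella, within KO hosts and the interaction share the KO Salmonella libraries, so their values are not independent of each other.

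Between hosts under PBS no gene passed the threshold with limma or with voom, and 0 of the 34 had an unadjusted p under 0.05, against 1.42% of tested genes. The percentage of all tested genes past the adjusted threshold was also 0. Log2 fold changes were nonetheless above 0 for 33 of the 34 genes, against 52.1% of tested genes, with a median of 0.19 and a range of -0.21 to 0.32. That direction rested in part on WT PBS M-1, without which 22 of 34 were above 0 and the median was 0.05. WT PBS M-1 was the lowest of the 3 WT PBS libraries for 32 of the 34 genes, against 36.8% of tested genes, and the lowest of all 6 PBS libraries for 30, against 18.5%.

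The genes were also averaged within each library. The mean log2 level over the 34 genes, set to 0 at the WT PBS mean, was 0.66 ± 0.11 in KO Salmonella, 0.18 ± 0.19 in KO PBS, -0.02 ± 0.13 in WT Salmonella and 0.00 ± 0.30 in WT PBS libraries (SD, n = 3 each). By library it was 0.74, 0.71 and 0.54 in KO Salmonella, 0.39, 0.08 and 0.05 in KO PBS, 0.12, -0.05 and -0.14 in WT Salmonella and 0.26, -0.33 and 0.08 in WT PBS. All 3 KO Salmonella libraries were above the other 9, and the other 3 groups overlapped. Gene by gene and after scaling, the 3 KO Salmonella libraries stood above the other 9 for 13 of the 34 genes, against 1.31% of tested genes. These were the 5 IFIT genes, Oas1a, Oasl1, Usp18, Cmpk2, Ifih1, Samd9l, Eif2ak2 and Ddx60. KO Salmonella M-2 was the lowest of its group for 28 of the 34 genes and KO PBS F-1 the highest of its group for 28. The median SD of a gene on the log2 scale within WT PBS was 0.30, against 0.10 for all tested genes, whereas in KO Salmonella it was 0.14, against 0.12. By role group, the IFIT genes averaged 1.15, 1.12 and 0.94 in KO Salmonella and 0.22, -0.20 and -0.17 in WT Salmonella libraries. PARP genes with Dtx3l averaged 0.29, 0.36 and 0.17 in KO Salmonella and -0.16, -0.51 and -0.22 in WT Salmonella libraries.

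**Figure D5:**
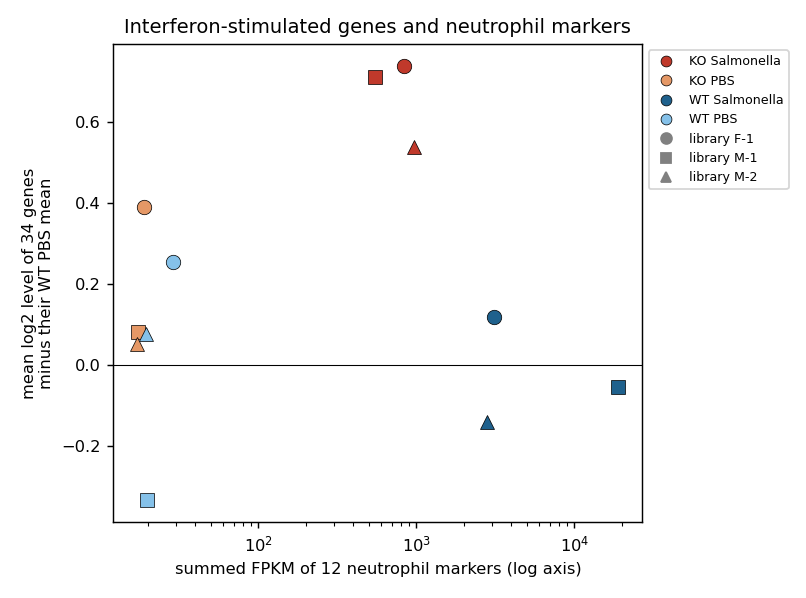
Mean log2 level of the 34 genes (y axis, relative to their WT PBS mean) against the summed FPKM of 12 neutrophil markers (x axis, log scale) in each of the 12 libraries. KO Salmonella libraries sit at 0.54 to 0.74 with sums of 545 to 967 FPKM, and WT Salmonella libraries at -0.14 to 0.12 with sums of 2810.1 to 18930.2 FPKM.

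Some cell type markers also differed between the groups. The sums of the neutrophil and of the endothelial markers were highest in WT Salmonella libraries. Lists given under other observations held markers higher and markers lower in KO Salmonella than in WT Salmonella. Of the 12 neutrophil markers, 11 were lower in KO Salmonella than in WT Salmonella, 6 rose with Salmonella in KO hosts and 12 rose in WT hosts. The background for these 3 comparisons was 5.65% of tested genes lower, 0.444% higher and 18.6% higher, in that order. Of the 8 endothelial markers, 5 were lower in KO Salmonella than in WT Salmonella and 7 rose with Salmonella in WT hosts. Their sums were 43.00 to 59.5 FPKM in KO Salmonella, 30.4 to 43.5 FPKM in KO PBS, 75.5 to 93.2 FPKM in WT Salmonella and 31.1 to 44.03 FPKM in WT PBS libraries. Of the 12 macrophage and monocyte markers 0 passed the threshold between hosts under Salmonella. Cx3cr1 and Ccr2 were at 1.86 ± 0.53 and 0.74 ± 0.27, with adjusted p-values (limma) of 0.0551 and 0.0999. After scaling, groups did not overlap for these 2, higher in KO hosts, and for 2 others, lower, against 1595 and 1564 of 12164 tested genes. As printed, Cx3cr1 overlapped, with 2.51 FPKM in KO Salmonella F-1 and 2.60 FPKM in WT Salmonella M-2. In WT hosts Mrc1 rose with Salmonella and Cx3cr1 and Ccr2 fell, with log2 fold changes of 2.07 ± 0.51, -2.92 ± 0.53 and -1.56 ± 0.27. That is 1 of 12 markers higher and 2 lower, against 18.6% of tested genes higher and 17.0% lower, so no more than the background. The sums of the list were 575 to 798 FPKM in KO Salmonella, 633 to 1285 FPKM in KO PBS, 425 to 745 FPKM in WT Salmonella and 695 to 1152 FPKM in WT PBS libraries. The part of these cell types in the levels of the 34 genes was not tested.

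Other genes of the pathway were taken from a list of ligands, receptors, kinases, factors, sensors and feedback inhibitors, of which 39 were listed and 32 tested. Between hosts under Salmonella, 3 of the 32 were higher and 2 lower in KO hosts, against 3.39% of tested genes higher and 5.65% lower. Ifnb1, the early type I interferon, had 0.104, 1.17 and 0.140 FPKM in KO Salmonella libraries, against 0.620, 0.426 and 0.309 FPKM in WT Salmonella libraries. Under PBS, Ifnb1 had 0.0392, 0.270 and 0.0356 FPKM in KO PBS libraries, against 0.694, 0.0687 and 0.595 FPKM in WT PBS libraries. It was low, and the groups overlapped in each comparison, with 1 to 35 fragments per library and a wide spread within KO Salmonella and within WT PBS. The 2 tested ligands, Ifnb1 and Ifng, did not pass the threshold in any comparison. The receptor chain Ifnar2 had 8.77, 7.46 and 8.29 FPKM in KO Salmonella libraries, against 12.1, 12.9 and 9.62 FPKM in WT Salmonella libraries, with a log2 fold change of -0.62 ± 0.16 (adjusted p = 0.0336, limma). Ifnar2 rose with Salmonella in WT hosts (0.66 ± 0.16, adjusted p = 0.00953), and Ifnar1 was not called in any comparison. Irf9 and Irf7 were not called in any comparison. Irf7, the factor that amplifies interferon production, averaged 144 ± 18.4 FPKM in KO Salmonella, 102 ± 17.3 FPKM in KO PBS, 111 ± 18.5 FPKM in WT Salmonella and 90.8 ± 13.2 FPKM in WT PBS libraries (SD, n = 3 each).

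Among the sensors on that list, the endosomal receptors Tlr3 and Tlr9 and the RNA helicase Ddx58 were higher in KO Salmonella than in WT Salmonella. Tlr3 had 9.53, 13.2 and 8.91 FPKM in KO Salmonella libraries, against 3.04, 3.32 and 6.92 FPKM in WT Salmonella libraries and a log2 fold change of 1.08 ± 0.23 (adjusted p = 0.0224, limma). Tlr9 had 4.89, 3.91 and 3.86 FPKM in KO Salmonella libraries, against 1.40, 1.40 and 1.64 FPKM in WT Salmonella libraries and a log2 fold change of 1.12 ± 0.23 (adjusted p = 0.0195). Both fell with Salmonella in WT hosts, by log2 fold changes of -0.80 ± 0.23 and -1.55 ± 0.23, with adjusted p-values of 0.0217 and 0.00124. Ddx58 had 34.7, 36.2 and 32.2 FPKM in KO Salmonella libraries, against 16.4, 15.6 and 24.4 FPKM in WT Salmonella libraries and a log2 fold change of 0.72 ± 0.16 (adjusted p = 0.0238). The kinase Ikbke, which phosphorylates IRF3, went the other way, with 4.72, 3.69 and 6.41 FPKM in KO Salmonella libraries, against 12.4, 26.6 and 8.54 FPKM in WT Salmonella libraries. Its log2 fold change was -1.62 ± 0.39 (adjusted p = 0.0333), and in WT hosts it rose with Salmonella by 2.03 ± 0.39 (adjusted p = 0.00467). In WT hosts Socs3, Cish and Ptpn2, inhibitors of cytokine signalling, also rose, by 1.69 ± 0.37, 1.07 ± 0.38 and 0.83 ± 0.14. Tlr7 and the kinase Tbk1 rose there by 0.64 ± 0.20 and 0.29 ± 0.07, and the receptor kinase Tyk2 fell, with a log2 fold change of -0.42 ± 0.11. In all, 7 of the 32 rose and 4 fell in WT hosts, against 18.6% of tested genes higher and 17.0% lower, so the list was near the background. No gene of the list passed the threshold in KO hosts, between hosts under PBS or for the interaction.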

How the data were processed

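RNA of 12 MC38 tumour libraries was measured in 4 groups of 3, read from the genotype and treatment labels, with replicate names from the titles. The authors deposited 1 FPKM value per gene and library, normalized by gene length and library total; this unit was inferred from the values. For 18220 of 18222 genes above 0 in a library (99.99%), FPKM values were whole numbers of fragments at 1 gene length, within 0.01 fragments, and 387 genes were at 0 throughout. The submitters' processing notes name fastp, HISAT2 and HTSeq without versions. For the build, annotation and strand setting, the processing was not given in the sources used here. RNA extraction used TRIzol and library making the VAHTS Universal V6 kit, per the labels' protocols.

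FPKM were divided by trimmed-mean scaling factors (30% of ratios and 5% of levels trimmed, unweighted), and genes reaching 0.5 FPKM in 3 or more libraries were kept. The test was limma (version 3.58.1, R version 4.3.3) on the log2 of scaled FPKM plus a pseudocount of 0.5, which understates changes of low genes. All 12 libraries entered 1 fit of 4 group means, leaving 8 residual degrees of freedom, with an intensity trend and robust moderation. Two-sided p-values received the Benjamini-Hochberg adjustment over 12164 genes, and 0.05 was the threshold. Libraries of a group differed far beyond sampling noise (chi-square per gene 16.9 to 166). At this depth 3 fragments in a gene of 1 kb, the limit that a count of 0 allows, came to 0.0774 to 0.0983 FPKM, for counting error only. No batch is given in the labels.

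The genes and lists were chosen with earlier results of these data known. Values in every library are given for each of the 34 genes past the threshold in any comparison and for the gene with the highest mean in each role group. Other genes are named only from the pathway, copy and cell type lists, among those that passed, beside Tlr4, Ifnb1, Ifnar1, Ifnar2, Irf9 and Irf7. A gene of the pathway list is counted but not reported here by name. Alternatives were other scalings, filters and pseudocounts, a fit of only the groups compared, the replicate or title letter in the model, voom on recovered fragments, library quality weights and each library left out. Promoter sequences are from RefSeq (GRCm38.p6).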

Additional observations from a re-analysis of the deposited data

How the results depend on the processing

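The direction of each of the 26 gene calls held under every alternative in which it was computed, and 175 of 598 such values were no longer past the threshold. For KO against WT under Salmonella the 20 genes became 1 when only the groups compared were fitted. Each library left out in turn gave 1 to 20. Other alternatives gave 14 (no filter) to 27 (FPKM as deposited), with 17 by voom. For Salmonella against PBS in WT hosts the 4 genes became 10 with FPKM as deposited, 2 without a filter, 0 with only the groups compared, 7 with the title letter and 14 with library quality weights. Libraries left out gave 0 to 12. In KO hosts the 2 genes became 1 without a filter, 7 with only the groups compared, 5 with the title letter, 1 by voom and 9 with quality weights. Libraries left out gave 0 to 8. For the interaction, 0 became 1 with FPKM as deposited, 1 with the replicate block, 1 with the title letter and 8 with quality weights, and 0 to 4 with libraries left out. It could not be run on only the groups compared, since it needs all 4. Between hosts under PBS the count was 0 in every alternative. Quality weights called 5538 of all genes between hosts under Salmonella, against 1099. The cause of these shifts was not tested.

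Whether libraries with the same replicate name are linked across groups is not stated in the labels, and the values below cannot decide it. Of 18 same-numbered pairs of libraries between groups, 7 had deviations that correlated over 0.1 (range -0.332 to 0.396), and 7 correlated best with their own number. With the number as a block, 21 genes were called between hosts under Salmonella (19 of the 20 shared), 5 in WT hosts (3 of 4 shared, without Eif2ak2), 2 in KO hosts (1 of 2 shared, without Ifit1), 1 for the interaction and 0 under PBS. The 34 genes had 171 fragments or more in every library, whereas Ifnb1 had 1 to 35.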

Other observations

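Other members of the same families were followed as a list of 21 genes, of which 13 passed the filter on low values. Between hosts under Salmonella 5 of the 13 were higher in KO hosts and 0 lower, against 3.39% of tested genes higher and 5.65% lower. The median log2 fold change was 0.39, against 0.015 for all tested genes. Parp11 and Parp12, ADP-ribosyltransferases related to Parp14, had 8.31, 9.18 and 8.54 FPKM in KO Salmonella libraries, against 3.56, 3.11 and 5.71 FPKM in WT Salmonella libraries and 86.3, 95.97 and 81.9 FPKM in KO Salmonella libraries, against 52.98, 42.9 and 58.4 FPKM in WT Salmonella libraries. Zc3hav1, which binds CpG-rich viral RNA, had 36.5, 32.5 and 30.7 FPKM in KO Salmonella libraries, against 20.8, 17.8 and 26.2 FPKM in WT Salmonella libraries. Sp110, related to Sp100, had 17.1, 17.3 and 15.96 FPKM in KO Salmonella libraries, against 11.3, 8.85 and 11.5 FPKM in WT Salmonella libraries, and Oas1c had 4.68, 3.46 and 3.68 FPKM in KO Salmonella libraries, against 2.19, 2.26 and 2.82 FPKM in WT Salmonella libraries. Log2 fold changes were 0.88 ± 0.15 for Parp11, 0.62 ± 0.13 for Parp12, 0.46 ± 0.11 for Zc3hav1, 0.50 ± 0.13 for Sp110 and 0.46 ± 0.13 for Oas1c, with adjusted p-values (limma) of 0.0134, 0.0224, 0.0322, 0.0402 and 0.0446. Parp11 fell with Salmonella in WT hosts (-0.63 ± 0.15, adjusted p = 0.00821), and no gene of the list was called in KO hosts, between hosts under PBS or for the interaction.

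Marker lists of further cell types gave these values, where the background between hosts under Salmonella was 3.39% of tested genes higher and 5.65% lower. The 7 fibroblast markers summed to 860.1 to 1137 FPKM in KO Salmonella, 839 to 1205 FPKM in KO PBS, 1469.5 to 1944 FPKM in WT Salmonella and 979.8 to 1207 FPKM in WT PBS libraries, and 3 were lower in KO Salmonella than in WT Salmonella. Skeletal muscle markers summed to 4.11 to 114 FPKM in KO Salmonella, 2.94 to 11.8 FPKM in KO PBS, 42.8 to 92.3 FPKM in WT Salmonella and 2.87 to 6.76 FPKM in WT PBS libraries, with 1 of 6 tested lower in KO Salmonella than in WT Salmonella. The 114 FPKM was in KO Salmonella F-1, against 4.11 FPKM in M-1 and 11.5 FPKM in M-2 of that group. T and NK markers summed to 5.70 to 11.8 FPKM in KO Salmonella, 9.60 to 40.5 FPKM in KO PBS, 5.21 to 15.6 FPKM in WT Salmonella and 15.7 to 33.8 FPKM in WT PBS libraries, with 0 of 8 tested called between hosts under Salmonella. Conventional dendritic markers summed to 3.85 to 4.69 FPKM in KO Salmonella, 7.26 to 13.04 FPKM in KO PBS, 2.12 to 3.18 FPKM in WT Salmonella and 8.67 to 11.01 FPKM in WT PBS libraries, with 1 of 2 tested higher in KO Salmonella than in WT Salmonella. B cell markers summed to 6.57 to 9.95 FPKM in KO Salmonella, 8.33 to 10.1 FPKM in KO PBS, 4.26 to 8.20 FPKM in WT Salmonella and 6.69 to 9.56 FPKM in WT PBS libraries, with 1 of 3 tested higher in KO Salmonella than in WT Salmonella. The plasmacytoid dendritic list includes Bst2, itself among the genes described here, which made up nearly all of the sum. In KO Salmonella F-1, Bst2 was at 1152 FPKM and the sum at 1155 FPKM. The list summed to 969 to 1155 FPKM in KO Salmonella, 699 to 773 FPKM in KO PBS, 635 to 835 FPKM in WT Salmonella and 612 to 769.8 FPKM in WT PBS libraries. Of its 4 tested markers, 0 were called between hosts under Salmonella.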
